A study of Mus musculus with 28 samples.

Results

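Fosb, on mouse chromosome 7, encodes a Fos-family subunit of the AP-1 transcription factor, and 9 genes that lie within 10 Mb of it are described here across wild type mice and both lines that carry a modified Fosb gene. The 9 are Ercc2, Pglyrp1, Ap2s1, Kptn, Pnmal2, Zfp180, Opa3, Rtn2 and Vmn1r180. Each is measured by 1 probe set that carries its symbol alone, so they make up 9 of 19938 genes. They were chosen from earlier results on these arrays, mutant against wild type, so the differences between mutant and wild type below are descriptions without a test. Kainate against saline and aged against young were not used for the choice and were tested, although on arrays that took part in the comparisons behind it. For Vmn1r180, whose place among the 9 rests on its young wild type and G/G saline arrays, those differences are descriptions too.

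The data are 28 arrays (Affymetrix Mouse Gene 1.0 ST) of hippocampus, with values on a log2 scale in which 1 unit is a doubling of signal. Young mice of 10 weeks were wild type, G/G, which are fosB-null, or d/d, whose label is a lack of FosB protein. They were given saline or kainate (KA), a glutamate receptor agonist that provokes seizures, and each of these 6 groups has 3 arrays. The older mice, of 64.7 to 71 weeks, comprised 3 wild type arrays, 3 of G/G mice with epilepsy, 2 of G/G mice without it and 2 of d/d mice without it. All mice are labelled C57BL/6J and female. The strain of the embryonic stem cells behind each allele and the number of backcrosses are not given in the sources used here, nor is the time between KA and sampling. For the d/d saline arrays a source name speaks of kainate where title and treatment say saline, and they were taken as saline. The replicates are labelled biological, and p-values measure the spread between these arrays.

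When a gene is altered in embryonic stem cells and the line is bred onward, the altered allele travels with the stretch of chromosome around it, since recombination seldom separates near neighbours. Mutant mice of such a line can therefore differ from wild type at the target and also at the genes beside it. In these arrays the modified Fosb allele and its neighbouring DNA always come together, so loss of a Fosb product and a difference in flanking DNA cannot be told apart.

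By RefSeq gene order the 9 genes lie on both sides of Fosb. Rtn2 is the measured gene next to Fosb on the lower-coordinate side, and Opa3 is 4 measured genes away on that side. Ercc2 is 4 genes away on the other side, beyond Ercc1, at a distance of 0.082 Mb between gene midpoints. Pglyrp1 lies 0.419 Mb from Fosb on the side of Rtn2, and Pnmal2, Ap2s1 and Kptn lie farther out on that side, at 2.36, 2.56 and 3.18 Mb. On the side of Ercc2, Vmn1r180 is at 4.65 Mb and Zfp180 at 4.79 Mb. Distances from Fosb thus run from 0.017 Mb for Rtn2 to 4.79 Mb for Zfp180, well inside the 10 Mb window, and 329 other measured genes lie in that window. The measured genes at its edge were Vmn2r52 (9.14 Mb, inside) and Clcn4 (12.0 Mb, outside) on one side, with differences from wild type of 0.06 and -0.02 in G/G and 0.02 and 0.07 in d/d mice. On the other side they were Ppp1r14a (9.98 Mb, inside), at 0.05 and 0.00 in the respective mutants, and Dpf1 (10.0 Mb, outside), at 0.09 and 0.06.

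Sites for AP-1 dimers were searched with the loose motif TGANTCA, in which N is any base. The related cyclic AMP response element was searched as TGACGTCA. Each motif reads the same on both strands, and neither contains the other. In RefSeq promoter windows of 300 bases around the gene start (GRCm38.p6), TGANTCA occurred in 7.81% and TGACGTCA in 1.79% of 32851 windows. Of the 9 genes, Vmn1r180 held 1 TGANTCA match and Kptn held 1 TGACGTCA match, and the windows of the other 7 and of Fosb held neither. Promoters of 4 genes are shown: Ercc2 and Pglyrp1, whose arrays parted most completely by genotype, and the pair with a match, which stands in capitals. The windows are all on the plus strand: Ercc2 at chr7:19381767-19382066, Pglyrp1 at chr7:18884440-18884739, Kptn at chr7:16119626-16119925 and Vmn1r180 at chr7:23952137-23952436.
Ercc2: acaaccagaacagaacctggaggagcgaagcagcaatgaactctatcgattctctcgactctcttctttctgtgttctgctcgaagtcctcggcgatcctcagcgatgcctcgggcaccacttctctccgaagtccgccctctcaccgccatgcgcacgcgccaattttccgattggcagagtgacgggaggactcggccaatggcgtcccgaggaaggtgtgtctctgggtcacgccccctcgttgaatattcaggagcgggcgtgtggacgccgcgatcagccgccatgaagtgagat
Pglyrp1: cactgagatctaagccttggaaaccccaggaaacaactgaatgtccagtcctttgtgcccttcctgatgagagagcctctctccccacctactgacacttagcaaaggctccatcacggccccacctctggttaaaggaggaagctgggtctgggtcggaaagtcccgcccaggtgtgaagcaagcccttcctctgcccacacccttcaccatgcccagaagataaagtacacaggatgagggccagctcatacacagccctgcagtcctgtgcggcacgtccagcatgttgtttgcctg
Kptn: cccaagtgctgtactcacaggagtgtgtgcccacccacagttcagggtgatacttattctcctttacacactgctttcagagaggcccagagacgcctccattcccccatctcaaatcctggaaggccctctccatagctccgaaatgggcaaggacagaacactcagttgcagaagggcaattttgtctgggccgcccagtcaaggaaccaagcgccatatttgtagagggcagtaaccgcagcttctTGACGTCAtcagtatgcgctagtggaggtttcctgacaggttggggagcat
Vmn1r180: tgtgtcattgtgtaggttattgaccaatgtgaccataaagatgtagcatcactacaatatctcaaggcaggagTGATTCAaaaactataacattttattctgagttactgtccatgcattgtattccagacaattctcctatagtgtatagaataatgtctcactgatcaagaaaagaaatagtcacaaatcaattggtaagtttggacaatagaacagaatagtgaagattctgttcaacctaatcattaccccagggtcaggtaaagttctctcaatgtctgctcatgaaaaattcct
The Vmn1r180 window has 35.0% G and C and 0 CpG, where the median promoter has 52.7% and 7 CpG, and the Ercc2 window has 58.7% and 27 CpG. The Vmn1r180 match is TGATTCA, with T at the open base, and whether AP-1 binds it was not tested. A match is a description of these letters only.

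The median of the probe sets ran from 7.95 to 8.43 over the 28 arrays, and replicates of a group correlated at 0.978 to 0.996. By level the young arrays fall into sets: replicate 1 of every group and replicates 2 and 3 of both mutant KA groups had medians of 8.05 to 8.11, and the remaining 8 arrays had medians of 8.33 to 8.43. Replicates 2 and 3 of the mutant KA groups were treated as a set apart from replicate 1, as in earlier work on these arrays. Their level alone does not part them from replicate 1, and the set so assigned holds no wild type array. Since the median gene moved by over 0.1 in some comparisons, differences between genotypes and KA changes in the mutants are given relative to it. Differences within an array set are as deposited, as are KA changes in wild type mice unless called relative. Quantile-normalized values stand as the alternative. The 6 hippocampal neuron markers lay between percentiles 90.0 and 100 of all genes, as fits the labelled tissue. The sex label did not hold for the young mice: Uty, a Y-linked gene, was at 9.24 to 10.02 in the 18 young arrays and at 5.03 to 5.73 in the 10 aged ones, and Xist was at 5.81 to 9.55 against 12.08 to 12.97. The 9.55 belongs to wild type saline replicate 1, and the other young arrays reached at most 7.58. Mutant against wild type comparisons were made within young or within aged arrays.

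Fosb itself was read at 8.61, 8.98 and 9.04 in wild type saline arrays, 8.42, 8.59 and 8.68 in G/G and 8.83, 9.55 and 9.39 in d/d arrays. After KA it was at 8.28, 8.75 and 9.02 in wild type, 7.78, 8.36 and 8.31 in G/G and 8.79, 8.93 and 9.02 in d/d mice. Aged wild type arrays were at 9.36, 9.85 and 9.77, G/G with epilepsy at 8.23, 9.64 and 8.64, without it at 8.54 and 8.76 and d/d at 9.80 and 9.81. Most G/G arrays lay low within their setting, and the d/d arrays lay inside or above the wild type range. Averaged over saline, KA and aged mice with equal weight and relative to the median gene, Fosb was lower in G/G (-0.49, SE 0.14) and higher in d/d (0.38, SE 0.15) than in wild type mice. The probe set thus gave signal in both mutants, and which part of the transcript it reads was not tested. All averaged differences below are formed in the same way, with their standard error (SE) from limma.

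Ercc2 encodes the XPD helicase of the transcription factor TFIIH, which opens DNA for transcription and for nucleotide excision repair. It was lower in both mutants in every setting. In saline it was at 9.37, 9.75 and 9.69 in wild type, 8.61, 8.92 and 9.06 in G/G and 8.72, 8.96 and 9.04 in d/d arrays. After KA the values were 9.12, 9.47 and 9.53 in wild type, 8.53, 8.30 and 8.34 in G/G and 8.55, 8.32 and 8.28 in d/d mice. In aged mice they were 9.24, 9.33 and 9.28 in wild type, 8.78, 8.74 and 8.77 in G/G with epilepsy, 8.57 and 8.61 without it and 8.50 and 8.45 in d/d mice. The lowest of the 9 wild type arrays (9.12) was above the highest of the 19 mutant arrays (9.06). The averaged difference was -0.68 (SE 0.071) in G/G and -0.70 (SE 0.076) in d/d mice, 1.60-fold and 1.63-fold lower. Over the 7 comparisons of a mutant group with its wild type group it ran from -0.77 to -0.53. In bulk tissue, fewer cells that make a transcript and less of it per cell cannot be told apart. For all 9 genes the values are array signals, and probe sequences were not available here. Whether the probes match the flanking DNA of the mutant lines as well as that of wild type was not tested.

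Pglyrp1, a peptidoglycan recognition protein of innate immunity that is stored in neutrophil granules, was likewise lower in both mutants in every setting. Saline arrays read 8.99, 9.20 and 9.15 in wild type, 8.44, 8.68 and 8.48 in G/G and 8.21, 8.56 and 8.54 in d/d mice. KA arrays read 9.16, 9.24 and 9.22 in wild type, 8.44, 8.33 and 8.26 in G/G and 8.38, 8.42 and 8.22 in d/d mice. Aged arrays read 9.28, 9.30 and 9.0 in wild type, 8.44, 8.76 and 8.47 in G/G with epilepsy, 8.35 and 8.16 without it and 7.97 and 8.14 in d/d mice. Again the lowest wild type array (8.99) was above the highest mutant array (8.76). The averaged difference was -0.65 (SE 0.064) in G/G and -0.77 (SE 0.069) in d/d mice, with the widest gap in aged d/d mice (-1.01, SE 0.13, 2.01-fold lower). The 9 neutrophil markers lay between percentiles 3.08 and 26.3 of all genes, and their mean level was 6.50 to 6.74 in wild type, 6.53 to 6.85 in G/G and 6.41 to 6.64 in d/d arrays (quantile-normalized log2). Of these markers, Cxcr2, the dimmest, alone was called in any of the 7 comparisons, lower in aged G/G mice without epilepsy (-0.90, where 0.115% of all genes were called) and in aged d/d mice (-0.91, with 0.0552%). In the same comparisons Retnlg (0.53 and 0.36), Elane (0.21 and 0.21) and Mpo (0.18 and 0.29) were higher without being called. Ngp was at 0.78 and -0.21, S100a9 at -0.07 and -0.24 and Ltf at -0.12 and 0.01. Camp was at -0.06 and 0.03 and S100a8 at 0.04 and 0.03. In d/d mice after KA all markers but Cxcr2 (0.06) were below 0, down to -0.40 for Ngp. In G/G saline mice all but Cxcr2 (-0.11) were above 0, up to 0.31 for Ngp. Their part in the Pglyrp1 difference was not tested.

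Ercc2 and Pglyrp1 were the only 2 of the 19938 genes (0.01%) with all 19 mutant arrays below all 9 wild type arrays, on the deposited and on the quantile-normalized scale. No gene had all mutant arrays above all wild type arrays as deposited, and after quantile normalization 1 did (0.00502%), which was Kptn. Since such differences chose the genes, these shares describe them and support nothing further.

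**Figure D1:**
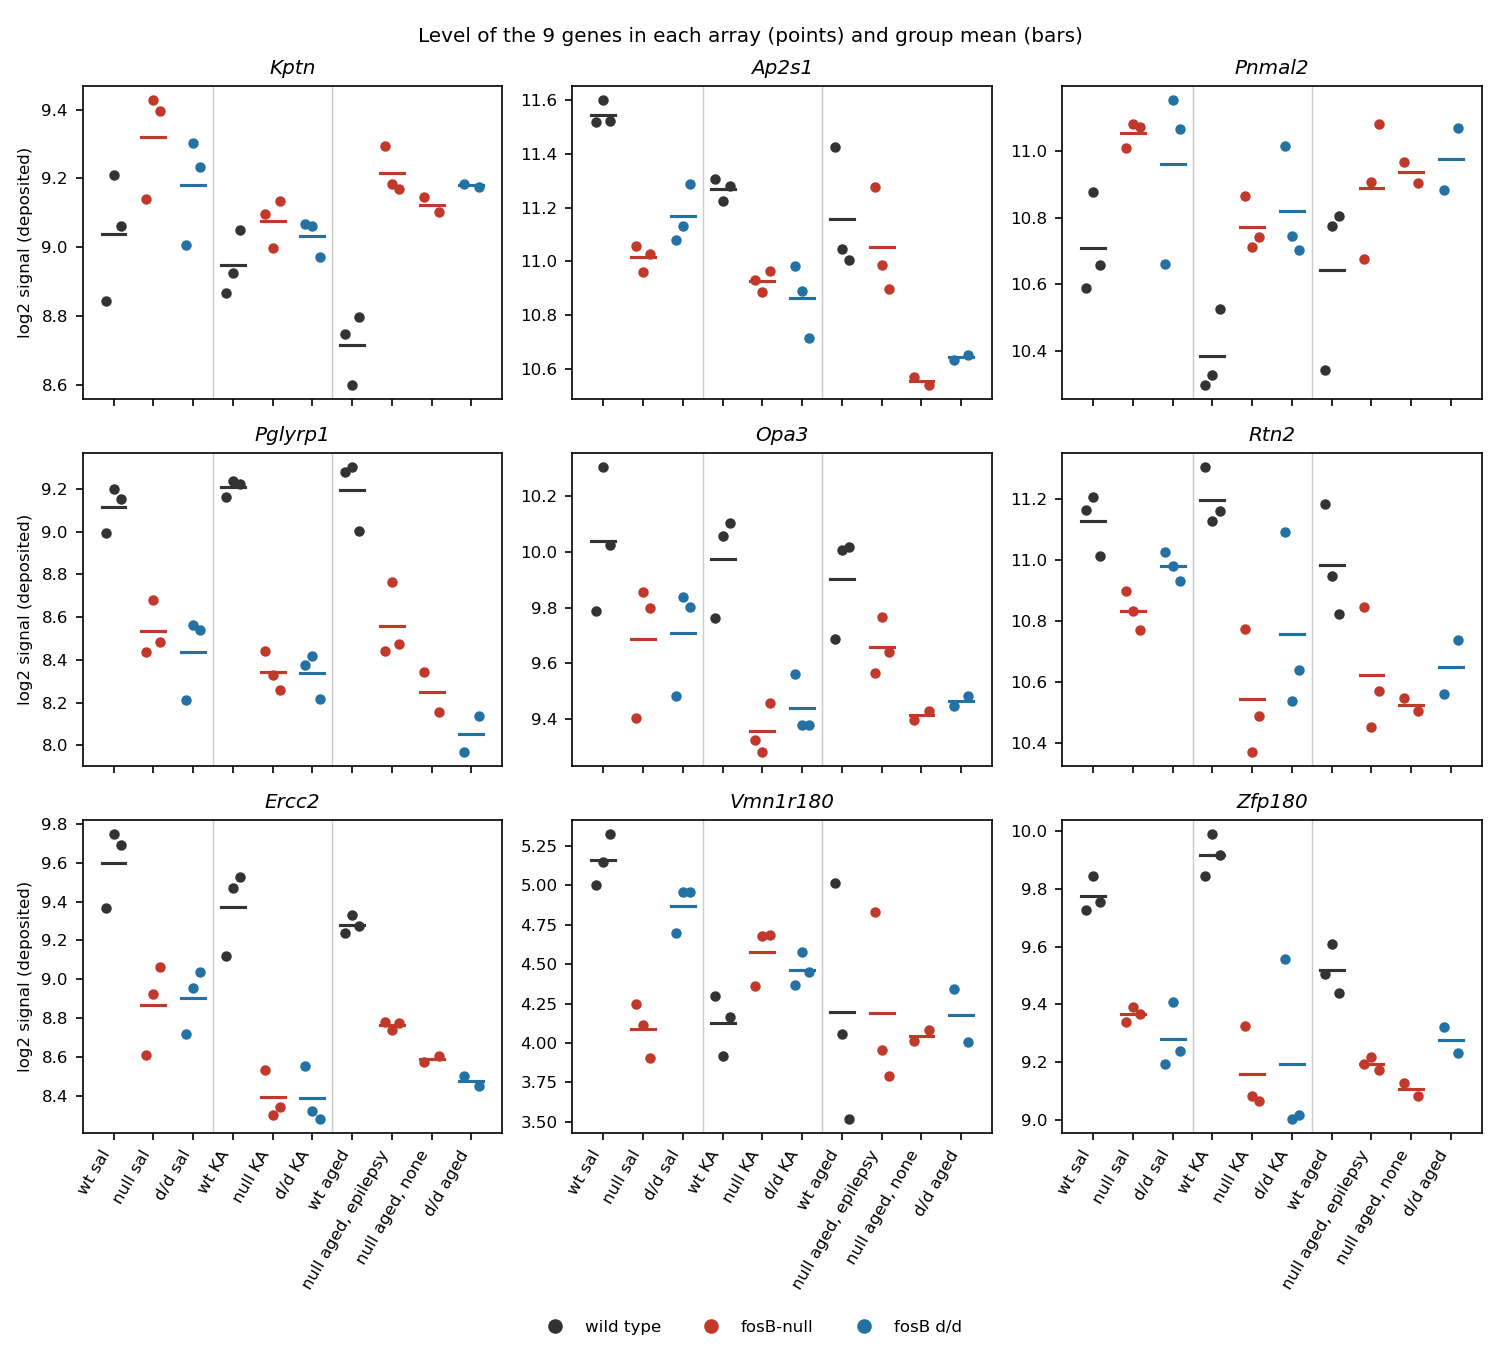
Deposited log2 signal (y axis) of the 9 genes in each of the 28 arrays (points) by group (x axis), with the group mean as a bar; colours mark genotype and vertical lines part saline, KA and aged mice. For Ercc2 and Pglyrp1 every wild type point lies above every mutant point, while Vmn1r180 changes its order between settings.

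Ap2s1 encodes the small sigma subunit of AP-2, the adaptor that loads cargo into clathrin-coated pits at the plasma membrane. It was among the brighter genes, with a mean of 11.05 over all arrays at percentile 90.7. Saline values were 11.52, 11.60 and 11.52 in wild type, 11.06, 10.96 and 11.03 in G/G and 11.08, 11.13 and 11.29 in d/d arrays. Those after KA were 11.31, 11.23 and 11.28 in wild type, 10.93, 10.89 and 10.96 in G/G and 10.98, 10.89 and 10.71 in d/d arrays. Neither mutant overlapped wild type in the young groups. Among aged mice the wild type arrays were at 11.43, 11.05 and 11.00, those of G/G mice with epilepsy at 11.28, 10.98 and 10.90, those without at 10.57 and 10.54 and those of d/d mice at 10.63 and 10.65. The aged G/G mice with epilepsy overlapped wild type, and the other aged mutants lay below it. Averaged differences were -0.32 (SE 0.060) in G/G and -0.31 (SE 0.064) in d/d mice.

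Rtn2, a reticulon that shapes membranes of the endoplasmic reticulum, is the gene next to Fosb. It was at 11.16, 11.21 and 11.01 in wild type saline arrays, 10.90, 10.83 and 10.77 in G/G and 11.03, 10.98 and 10.93 in d/d ones. With KA it read 11.30, 11.13 and 11.16 in wild type, 10.77, 10.37 and 10.49 in G/G and 11.09, 10.54 and 10.64 in d/d arrays. The G/G arrays stayed below wild type in both, whereas 1 d/d saline array overlapped it and replicate 1 of d/d KA stood well above the other two. Aged arrays were at 11.18, 10.95 and 10.82 in wild type, 10.84, 10.45 and 10.57 in G/G with epilepsy, 10.55 and 10.51 without it and 10.56 and 10.74 in d/d mice. The averaged difference was -0.36 (SE 0.074) in G/G and -0.18 (SE 0.079) in d/d mice, the smallest of the d/d values apart from Vmn1r180.

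Opa3, a mitochondrial protein named for inherited optic atrophy, was lower in both mutants, with overlap in some groups. It was at 9.79, 10.30 and 10.02 in wild type saline arrays, 9.40, 9.86 and 9.80 in G/G and 9.48, 9.84 and 9.80 in d/d arrays, so that in each genotype replicate 1 was the lowest. After KA it was at 9.76, 10.06 and 10.10 in wild type, 9.32, 9.28 and 9.46 in G/G and 9.56, 9.38 and 9.38 in d/d mice, with all mutant arrays below wild type. Aged wild type arrays were at 9.69, 10.01 and 10.02, G/G with epilepsy at 9.57, 9.77 and 9.64, without it at 9.40 and 9.43 and d/d at 9.44 and 9.48. Its averaged difference was -0.35 (SE 0.077) in G/G and -0.31 (SE 0.083) in d/d mice.

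Zfp180, a zinc finger gene at the far end of the described stretch, was lower in every mutant group. Wild type saline arrays were at 9.73, 9.84 and 9.76, G/G at 9.34, 9.39 and 9.37 and d/d at 9.19, 9.41 and 9.24. The KA groups were at 9.85, 9.99 and 9.92 in wild type, 9.32, 9.08 and 9.07 in G/G and 9.56, 9.0 and 9.02 in d/d mice, with replicate 1 of d/d KA again high. The aged groups were at 9.50, 9.61 and 9.44 in wild type, 9.19, 9.22 and 9.17 in G/G with epilepsy, 9.13 and 9.08 without it and 9.32 and 9.23 in d/d mice. No mutant array reached the wild type arrays of its own setting, and the averaged differences were -0.42 (SE 0.063) in G/G and -0.36 (SE 0.068) in d/d mice. The d/d difference was smallest in aged mice (-0.11, SE 0.080).

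Kptn and Pnmal2 went the other way and were higher in both mutants relative to the median gene. Kptn encodes kaptin, an actin-associated protein and a subunit of KICSTOR, the complex that restrains mTORC1 when nutrients are scarce. In saline it read 8.84, 9.21 and 9.06 in wild type, 9.14, 9.43 and 9.40 in G/G and 9.01, 9.30 and 9.23 in d/d arrays. In KA it read 8.87, 8.93 and 9.05 in wild type, 9.10, 9.0 and 9.13 in G/G and 9.07, 9.06 and 8.97 in d/d arrays. As deposited, mutant and wild type overlapped in the young groups. In aged mice they did not, at 8.75, 8.60 and 8.80 in wild type against 9.29, 9.18 and 9.17 in G/G mice with epilepsy, 9.15 and 9.10 without it and 9.18 and 9.18 in d/d mice. The averaged difference was 0.38 (SE 0.057) in G/G and 0.36 (SE 0.061) in d/d mice, and the comparisons ran from 0.19 to 0.60.

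Pnmal2 belongs to the Pnma family, whose proteins derive from a retrotransposon gag gene. Saline arrays were at 10.59, 10.88 and 10.66 in wild type, 11.01, 11.08 and 11.07 in G/G and 10.66, 11.15 and 11.07 in d/d mice. KA arrays were at 10.30, 10.33 and 10.53 in wild type, 10.87, 10.71 and 10.74 in G/G and 11.02, 10.75 and 10.70 in d/d mice, and here all mutant arrays lay above wild type. Aged arrays were at 10.34, 10.78 and 10.81 in wild type, 10.68, 10.91 and 11.08 in G/G with epilepsy, 10.97 and 10.91 without it and 10.88 and 11.07 in d/d mice, where 1 wild type array lay far below the others. The averaged difference was 0.43 (SE 0.077) in G/G and 0.47 (SE 0.083) in d/d mice.

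Vmn1r180, a receptor gene of the vomeronasal organ, was near the bottom of the array's range. Its mean of 4.41 lay at percentile 1.33 of all genes, and Omp, a marker of olfactory and vomeronasal neurons, lay at percentile 31.9, while Gnai2, a vomeronasal G protein that many tissues express, lay at 96.9. In saline it was at 5.0, 5.15 and 5.32 in wild type, 4.25, 4.11 and 3.90 in G/G and 4.70, 4.96 and 4.96 in d/d arrays. After KA the order turned, with 4.30, 3.92 and 4.17 in wild type, 4.36, 4.68 and 4.68 in G/G and 4.37, 4.58 and 4.45 in d/d arrays. Aged arrays were at 5.02, 4.06 and 3.52 in wild type, 4.83, 3.96 and 3.79 in G/G with epilepsy, 4.01 and 4.08 without it and 4.34 and 4.01 in d/d mice. The aged wild type arrays spanned all of the mutant values. The difference from wild type was -1.04 in saline and 0.65 after KA in G/G mice (SE 0.14 each), and -0.24 and 0.55 in d/d mice. Averaged over settings it was -0.14 (SE 0.14) and 0.14 (SE 0.15). Its family has 117 other measured genes, and which of them its probes also match was not tested.

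**Figure D2:**
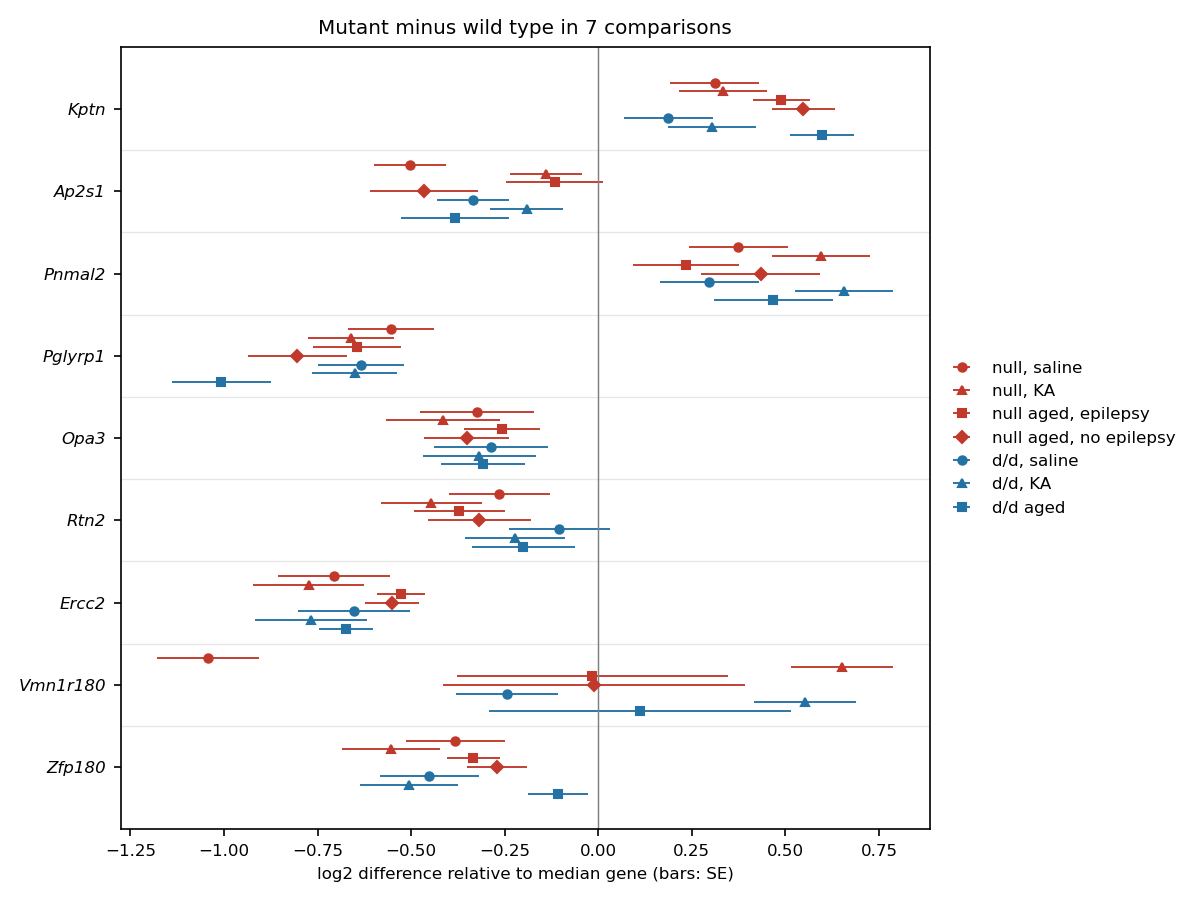
Mutant minus wild type difference on the log2 scale relative to the median gene (x axis), for each of the 9 genes (rows) in 7 comparisons; points are differences, bars the SE, and colour and shape mark mutant and setting. Kptn and Pnmal2 lie to the right of 0 and Ercc2 and Pglyrp1 to the left of -0.5 in all 7, while Vmn1r180 runs from -1.04 to 0.65.

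Taking saline, KA and aged mice each by itself, 3 of the 9 genes (Pglyrp1, Ercc2 and Zfp180) had every G/G array below every wild type array of the same setting, where 16 of all 19938 genes did (0.0802%). In d/d mice the same held for Ap2s1, Pglyrp1, Ercc2 and Zfp180, against 148 of all genes (0.742%). After quantile normalization the share of all genes was 0.0502% for G/G (lower), with the same 3 genes among them, and 0.0752% for d/d, with Ap2s1, Pglyrp1, Opa3 and Ercc2. On that scale Kptn was higher in every setting in G/G (0.0201% of all genes) and Kptn and Pnmal2 were in d/d mice (0.0351%). Within an array set, each of the 9 genes kept the sign of its difference: in replicate 1 alone Ercc2 differed by -0.76 and -0.65 in saline and -0.59 and -0.57 after KA (G/G and d/d), and in replicates 2 and 3 by -0.72 and -0.72 in saline. The order of Vmn1r180 after KA was weak there, as within replicate 1 the mutants differed by only 0.06 and 0.07. For replicates 2 and 3 after KA, genotype and the assigned array set cannot be told apart.

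The 2 mutant lines share the wild type arrays, so their differences from wild type are given side by side above, and set directly against each other they were close. For the 8 genes other than Vmn1r180, G/G minus d/d ran from -0.23 to 0.21 over saline, KA and aged mice without epilepsy. The ends of that range were Rtn2 after KA (-0.23, SE 0.13) and Pglyrp1 in aged mice (0.21, SE 0.15). Vmn1r180 differed by -0.80 (SE 0.14) in saline, 0.09 after KA and -0.12 in aged mice. For Fosb itself, which the alleles alter, the same differences were -0.71 (SE 0.21), -0.79 (SE 0.21) and -1.15 (SE 0.36).

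The stretch around Fosb held further genes that differed from wild type in the averaged contrasts, where limma called 1.43% of all genes for G/G and 4.53% for d/d mice. Among the 329 other genes within 10 Mb it called 13 (3.95%) for G/G and 23 (6.99%) for d/d, all of them lower, against 1.3% and 4.45% of genes on other chromosomes, where 235 of 235 and 805 of 806 calls were lower. After quantile normalization 9 were lower and 2 higher for G/G, and 1 was lower and 1 higher for d/d, shares of 3.34% and 0.608% of the 329, against 0.232% and 0.0221% on other chromosomes. Psg16, a pregnancy-specific glycoprotein gene, was at -0.48 (SE 0.088) in G/G and -0.52 (SE 0.095) in d/d mice. Gng8, a G protein gamma subunit, was at -0.33 and -0.32 (SE 0.079 and 0.085). Zfp109, a zinc finger gene near Zfp180, was at -0.43 (SE 0.071) and -0.30 (SE 0.076). Ercc1, the repair nuclease subunit between Fosb and Ercc2, was at -0.22 (SE 0.050) and -0.14 (SE 0.054). By contrast Ceacam2, a cell adhesion gene, was at -0.52 (SE 0.10) in G/G and -0.01 (SE 0.11) in d/d mice.

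The measured genes that touch the described ones on the chromosome gave mixed values. As deposited, limma called Gpr4, Ccdc61 and Calm3 lower in the averaged d/d contrast, where 4.53% of all genes were called. In that for G/G it called Calm3 lower, where 1.43% were called. Klc3 and Ppp1r13l, which flank Ercc2, were at 0.07 and -0.05 in G/G and 0.09 and -0.03 in d/d mice. Gpr4 and Vasp beside Opa3 were at 0.02 and -0.07 in G/G and -0.12 and -0.04 in d/d mice, and Ppm1n beside Rtn2 at 0.07 and 0.09. Pnmal1, the paralogue next to Pnmal2, was at -0.06 and -0.07, and Calm3 on its other side at -0.18 (SE 0.043) and -0.12 (SE 0.047). Napa, beside Kptn, was at 0.16 (SE 0.048) and 0.23 (SE 0.052), and Slc8a2 on the other side at 0.05 and 0.06. Mill2 and Ccdc61, beside Pglyrp1, were at 0.01 and -0.19 in G/G and 0.01 and -0.25 in d/d mice. Ceacam9 and Slc1a5, beside Ap2s1, were at -0.01 and 0.11 in G/G and 0.05 and 0.10 in d/d mice. Vmn1r178 and Vmn1r181, beside Vmn1r180, were at 0.06 and 0.17 in G/G and -0.06 and 0.29 in d/d mice. Vmn1r183 and Zfp112, beside Zfp180, were at 0.00 and -0.03 in G/G and 0.07 and 0.06 in d/d mice. In chromosomal order, Kptn was higher, Ap2s1 lower and Pnmal2 higher, and then Pglyrp1, Opa3, Rtn2, Ercc2 and Zfp180 were all lower, with Vmn1r180 near 0 before Zfp180.

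**Figure D3:**
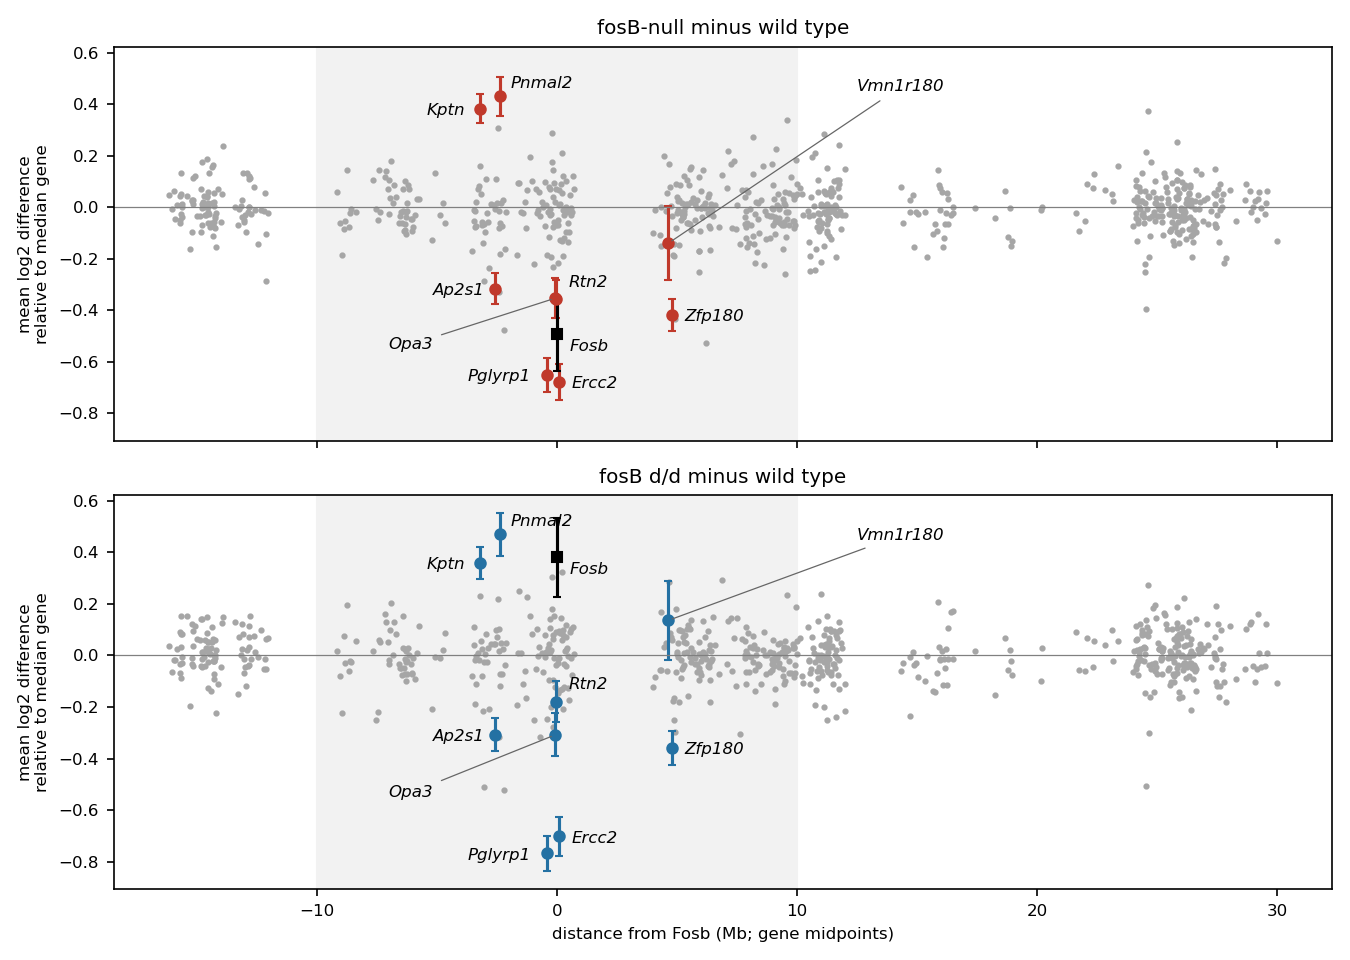
Averaged mutant minus wild type difference (log2, relative to the median gene; y axis) of measured genes on chromosome 7 against distance from Fosb in Mb (x axis), for G/G (fosB-null, top) and d/d (bottom); coloured points with SE bars are the 9 genes, the black square is Fosb, grey points are other genes and the shaded band is the 10 Mb window. Kptn at 0.38 and 0.36 and Ercc2 at -0.68 and -0.70 lie at like heights in both panels, and Fosb lies on opposite sides of 0.

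Genes known to work with the described ones were read from lists in the averaged contrasts. As deposited, limma called 1.43% of all genes for G/G and 4.53% for d/d mice there. The unadjusted counts given for the lists stand without a share of all genes and only describe them. Of 13 other measured genes of TFIIH and excision repair, limma called 1 lower in G/G (Ercc1) and 3 lower in d/d mice (Ercc1, Xpc and Gtf2h5, at -0.14, -0.12 and -0.08), with 0 called after quantile normalization, where 3 had an unadjusted p under 0.05 in each. The list median was -0.03 and -0.05 relative to all genes. The 4 other AP-2 subunits had 0 called (3 and 1 at an unadjusted p under 0.05) and lay between -0.06 and 0.06 in both mutants, while Ap2s1 was at -0.32 and -0.31. Among 6 sigma subunits of other adaptors, Ap1s1 was lower in G/G (-0.30, SE 0.057) and at 0.13 (SE 0.062) in d/d mice. The other 3 reticulons had 0 called, with 1 and 2 at an unadjusted p under 0.05, and lay between -0.06 and 0.07. The 7 measured Pnma relatives had 0 called, with 3 at an unadjusted p under 0.05 in each mutant, and ran from -0.09 to 0.14.

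Opa1, a mitochondrial fusion protein that shares its disease name with Opa3, was at -0.01 and 0.01. The 2 measured peptidoglycan recognition proteins other than Pglyrp1 had 0 called (0 and 1 at an unadjusted p under 0.05), between -0.04 and 0.05. KICSTOR had 2 further measured subunits, Itfg2 and BC048403, at -0.06 and -0.02 in G/G and at -0.08 and -0.11 in d/d mice, where both were called as deposited and neither after quantile normalization, while Kptn was at 0.38 and 0.36. Of 10 zinc finger genes near Zfp180, 1 was called lower in G/G (Zfp109) and 2 in d/d mice (Zfp109 and Zfp114, the latter at -0.25, SE 0.090). After quantile normalization 1 was called in G/G and 0 in d/d mice, with 4 at an unadjusted p under 0.05 in each. The other 117 type 1 vomeronasal receptors had 1 called lower in G/G and 6 in d/d mice as deposited and 0 after quantile normalization (7 and 17 at an unadjusted p under 0.05), with a list median of 0.02 and -0.02. Over all genes, 1.43% were called for G/G and 4.53% for d/d mice as deposited.

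Across the 28 quantile-normalized arrays, the genes whose pattern was most like that of each described gene were often its neighbours. The 3 most correlated genes of each of the 9 gave 27 entries, of which 15 lie within 10 Mb of Fosb, where 1.7% of genes lie, and 8 are themselves among the 9. Ercc2 was most like Opa3 (Pearson r = 0.87), Dmwd (0.83) and Pglyrp1 (0.82). Kptn was most like Pnmal2 (0.76) and Napa (0.73), and ran opposite to Pglyrp1 (-0.84). Rtn2 and Zfp180 correlated at 0.78, while their closest genes were Ackr1 (0.83) and Lpcat1 (0.82), on other chromosomes. Vmn1r180 was most like Ube2j2 (0.87) and the olfactory receptors Olfr1219 (0.84) and Olfr101 (0.83), none near Fosb. These are descriptions over arrays that share genotypes and array sets, and the genotype difference that chose the genes is part of each value.

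Kainate against saline within a genotype asks whether these genes also answered to the seizure-provoking drug. In wild type mice 0 of the 8 other than Vmn1r180 passed (limma, Benjamini-Hochberg adjusted p under 0.05 over all genes), where 2.56% of all genes did and 0.938% were lower. At an unadjusted p under 0.05 there were 2 of the 8, against 13% of all genes. Vmn1r180 differed by -1.03 (SE 0.14) in wild type mice, with all 3 KA arrays below all 3 saline arrays. Within replicate 1 it was at 4.30 against 5.0, and in replicates 2 and 3, every KA array (3.92 and 4.17) lay below every saline array (5.15 and 5.32). The wild type saline arrays, where Vmn1r180 was high, also took part in its choice, so no p is given for it, and its signal lay near the bottom of the range. In the same contrast 5 of the 117 other type 1 vomeronasal receptors were called higher and 0 lower. Over all genes 2.56% were called in either direction and 0.938% lower. The median change of the 9 was -0.09, against 0.01 over all genes. Ap2s1 (-0.28, SE 0.097, adjusted p = 0.186), Pnmal2 (-0.33, SE 0.13, adjusted p = 0.275) and Ercc2 (-0.23, SE 0.15, adjusted p = 0.573) did not pass in limma as deposited. After quantile normalization, with 3.41% of all genes called lower, 1 of the 8 was called, Pnmal2 (-0.28, SE 0.076, adjusted p = 0.0387 in limma). With the array set as a block added, where 17.6% of all genes were called, limma called Ap2s1 (adjusted p = 0.00912) and Ercc2 (adjusted p = 0.0191) as well.

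In G/G mice KA called 0 of the 8, with 0.0752% of all genes called, and in d/d mice 0, with 0.0301%. In the respective mutants 4 and 2 of the 8 had an unadjusted p under 0.05 in limma, against 17.7% and 17.2% of all genes. With the replicate number as a block, where same-numbered arrays deviated together in both contrasts, limma still called 0 of the 8, while over all genes it called 134 instead of 15 (G/G) and 475 instead of 6 (d/d). Vmn1r180, taken relative to the median gene, was at 0.66 in G/G and -0.23 in d/d mice (SE 0.14 each). The KA replicates 2 and 3 of the mutants were treated as another array set than their saline arrays. With the array set as a block after quantile normalization, Vmn1r180 was at 0.30 and -0.63 (SE 0.15 each). Relative to the median gene, Ercc2 was at -0.24, -0.30 and -0.35 in wild type, G/G and d/d mice, and it passed in none of them as deposited. With the set block it was at -0.20, -0.10 and -0.16, so that its mutant values were nearer 0. Without the set block and relative to the median gene, Pglyrp1 lay between -0.02 and 0.08 in the 3 genotypes. On that scale Kptn lay between -0.10 and 0.02 and Zfp180 between -0.03 and 0.13. The relative value of Zfp180 in G/G mice (-0.03) was 0.09 with the set block. That of Ap2s1 changed sign the other way (0.09 to -0.06), though without subtracting the median gene it was below 0 in both (-0.09 and -0.07). A difference of this size that misses the threshold is not shown to be absent with 3 arrays a group.

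**Figure D4:**
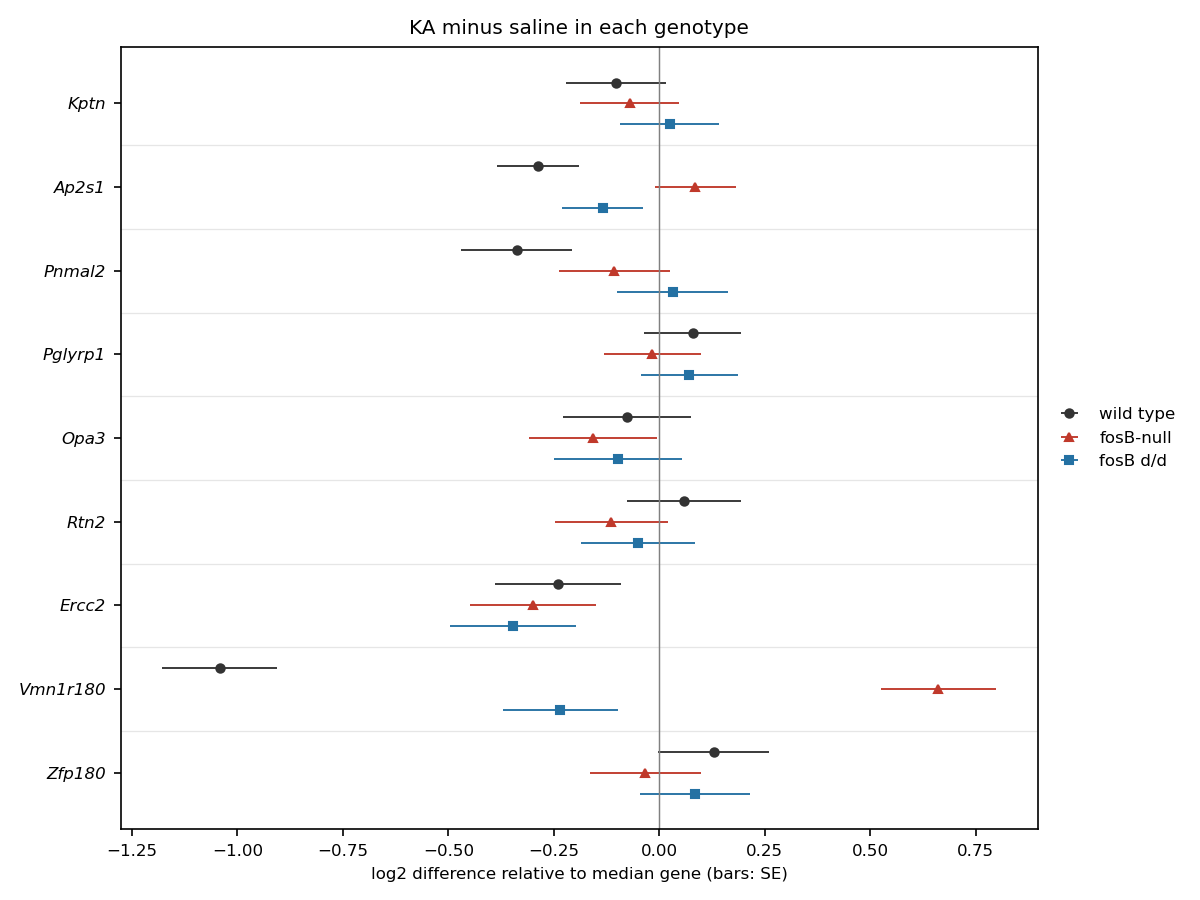
KA minus saline difference on the log2 scale relative to the median gene (x axis) for each of the 9 genes (rows) in wild type, G/G (fosB-null) and d/d mice (3 arrays per group); points are differences and bars the SE. Vmn1r180 lies at -1.04 in wild type and 0.66 in fosB-null mice, and the other 8 genes lie between -0.35 and 0.13.

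Aged mice without epilepsy were set against young saline mice of the same genotype in a fit of all 28 arrays. Age goes with sex-linked signal here, as Uty and Xist above show, and the pair cannot be told apart. In wild type mice 0 of the 8 other than Vmn1r180 passed in limma, with 0.11% of all genes called, and 4 had an unadjusted p under 0.05, against 18.8% of all genes. Vmn1r180 was at -0.96 as deposited and -0.79 with the median gene subtracted (SE 0.26). In G/G mice Ap2s1 passed, at -0.46 as deposited and -0.18 with the median gene subtracted (SE 0.12, adjusted p = 0.0188 in limma), where 18.1% of all genes passed. In d/d mice, with 14% of all genes passing in limma, Ap2s1 was at -0.52 (-0.27 relative, SE 0.12, adjusted p = 0.0133), Ercc2 at -0.43 (-0.18 relative, SE 0.14, adjusted p = 0.0454) and Pglyrp1 at -0.38 (-0.13 relative, SE 0.13, adjusted p = 0.0482). The aged and saline arrays of both mutants also took part in the choice of these genes, so these p-values are not independent of it. After quantile normalization 0 of the 8 passed in limma in any genotype. At an unadjusted p under 0.05 there were then 3 in wild type, 0 in G/G and 4 in d/d mice, against 7.95%, 13% and 13.4% of all genes.

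These age calls rest on few arrays, and the share of all genes called moved with them. Without wild type saline replicate 1, the array with the raised Xist, 3 of the 8 passed in wild type mice (10.2% of all genes), and without aged wild type replicate 1, 1 did (0.592%). In G/G mice 0 passed without aged replicate 1 or 2 (0.11% and 0.657% of all genes) or without saline replicate 2 or 3 (1.94% and 1.76%), and 3 passed without saline replicate 1 (36.7%). In d/d mice 0 passed without saline replicate 2 or 3 (0.577% and 0.853%), and 3 passed without saline replicate 1 (32.8%). Both aged mutant groups have 2 arrays, so leaving 1 out leaves a lone array that is assumed to vary like the other groups. Relative to the median gene, the age difference of Kptn was -0.16 in wild type, 0.08 in G/G and 0.25 in d/d mice, and that of Opa3 lay between 0.00 and 0.03.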

How the data were processed

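The deposited values were log2 signals of 35557 probe sets on 28 arrays. Affymetrix Expression Console is named in the submitters' processing notes, and the summarisation algorithm is not given in the sources used here. Probe sets were named from GEO's platform annotation: 21789 had 1 symbol, 1621 had several and 12147 had none, and only the first kind was used, with the brightest on average kept for each of 19938 genes. Groups came from the labels. limma 3.58.1 (R 4.3.3, lmFit and eBayes) was fitted to the 18 young arrays, to the 10 aged arrays and, for averaged and age differences, to all 28, with Benjamini-Hochberg adjustment over all genes and a threshold of 0.05. It was tested on simulated data. The members and lists were chosen with earlier results of these data known.

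Named members were all 9, and other genes were named as the members' neighbours, as called genes in the window, as list members or as the 3 genes most correlated with a member. The alternatives were quantile normalization (alone and with the array set as a block), the dimmest 30% of genes left out, only the compared groups, a replicate block, other windows and each replicate left out. Same-numbered arrays deviated together (every correlation over 0.1) in 5 comparisons: d/d against wild type in saline, G/G against wild type after KA, aged G/G mice with epilepsy against wild type, and KA against saline in both mutants.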

Additional observations from a re-analysis of the deposited data

Results flagged for a closer look

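The response of Vmn1r180 to KA differed between G/G (fosB-null) and wild type mice by 1.69 on the log2 scale relative to the median gene (SE 0.19), in limma's interaction term. All wild type KA arrays lay below all wild type saline arrays, and all G/G KA arrays lay above all G/G saline arrays. However, G/G KA replicates 2 and 3 were treated as part of an array set that holds no saline array. By level alone they lay with replicate 1. Within replicate 1, G/G went only from 4.25 in saline to 4.36 after KA, and wild type from 5.0 to 4.30. The contrast combines comparisons that chose the gene, so no p is given. The signal lay at percentile 1.33 of all genes, and the part of matches to related receptors in the difference was not tested. With the array set as a block after quantile normalization the difference was 1.40 (SE 0.19), against 1.78 with quantile normalization alone (SE 0.23).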

How the results depend on the processing

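No KA or age value called as deposited changed sign under the alternatives run. Small values that were not called did, as given relative to the median gene for Zfp180 and Ap2s1 above. For G/G against wild type after KA the members' median difference was -0.33 when the array set was a block after quantile normalization, and leaving out single replicates gave -0.418 to -0.310. For d/d after KA that range was -0.356 to -0.094, for aged G/G mice with epilepsy -0.367 to -0.219 and for aged d/d mice -0.298 to -0.094. For G/G minus d/d in aged mice the median was -0.065 with quantile normalization and -0.057 without dim genes, with -0.070 to -0.019 over left-out replicates. For the difference in KA response between G/G and wild type it was -0.139 without dim genes, a filter that takes Vmn1r180 out.

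Vmn1r180 is left out of the counts here, as its KA and age differences are descriptions. Members called for KA in wild type mice were then 1 with quantile normalization (6.89% of all genes). They were 0 without dim genes (3.69%) and 3 with the set block (17.6%). For age, leaving out replicates gave 0 to 4 in wild type (0.0201% to 10.2%), 0 to 3 in G/G (0.11% to 36.7%) and 0 to 3 in d/d mice (0.0552% to 32.8%). In G/G mice 0 were called with quantile normalization (0.802%), 2 with the replicate block (25.2%) and 0 with only the compared groups (0.0351%). In d/d mice 0 were called with quantile normalization (0.527%) and 0 with only the compared groups (2.59%). The replicate block changed no other count of members called by over 1.5 times.

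Within 2 Mb and 30 Mb of Fosb, 10.5% and 3.9% of genes were called for G/G mice. For d/d mice 15.8% were called within 2 Mb, and 2.66% within 10 Mb after quantile normalization. All of these shares count the described genes inside the window, which mutant against wild type differences chose, so they are not independent of that choice. With the described genes left out, the d/d share within 10 Mb after quantile normalization was 0.608%. Partner genes called after quantile normalization were 2 for G/G and 0 for d/d mice. Over all genes, the averaged contrasts called 286 and 904 genes as deposited, 68 and 13 after quantile normalization and 965 and 2658 with the replicate block. KA in wild type mice called 510 as deposited and 1374 after quantile normalization, and age called 3601 and 160 in G/G and 2798 and 105 in d/d mice. Array number limits the precision, with 2 or 3 arrays per group.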
